A study of Mus musculus with 2 samples.

Results

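Caspases are proteases that cut their targets after aspartate. The caspase genes described here were Casp1, Casp2, Casp6, Casp8, Casp9 and Casp12, a named list of 6 genes among 55413 annotated genes. The rule takes them by name and uses no methylation value, but the list was chosen with earlier results of these data known. Their CpG methylation was read from 2 reduced representation bisulfite sequencing libraries, 1 of mouse C3H myotubes transfected with a control siRNA (siCon) and 1 of myotubes transfected with an siRNA against H19 (siH19), both harvested 48 h after transfection. H19 is an imprinted long non-coding RNA. The paper on these data picked Casp2 among genes with strong hypermethylation in siH19. It also measured a Casp2 site by quantitative methylation-specific PCR. There it reported a rise with siH19 that silencing or inhibiting S-adenosylhomocysteine hydrolase brought back to the control level. That site was not compared with the values here. Both groups were grown as C3H myoblasts and differentiated into myotubes before transfection, and apart from the siRNA the labels give them the same treatment. The cells of each group were read as 1 library, so the knockdown of H19 and the myotube identity, which need RNA or protein, were not measured here, and every test below compares 2 libraries rather than 2 conditions. Because there was 1 library for each group, no spread between replicates could be given, and all intervals are 95% intervals for counting error alone. Reads carried no molecular identifiers, so reads copied from 1 molecule are counted more than once.

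Caspases fall into groups by role. Casp8 and Casp9 are initiators, which are activated on protein platforms: Casp8 by the adaptor Fadd at death receptors, and Casp9 by Apaf1 after cytochrome c leaves mitochondria. Casp2 is an initiator that assembles on the PIDDosome. Casp6 is an executioner, which cuts lamins, and Casp1 is the inflammatory caspase, which matures interleukin 1 beta and cleaves gasdermin D. Casp12 is related to the inflammatory caspases and resides at the endoplasmic reticulum. Methylation of CpG cytosines is generally low at CpG-rich promoters and high over gene bodies and CpG-poor DNA.

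Reduced representation sequencing reads only fragments between restriction sites, here of MspI (CCGG) and TaqI (TCGA). A cytosine was used if it had at least 5 reads in each library and lay outside both sites, since the cut ends carry nucleotides filled in during library preparation. The caspase genes held 188 such cytosines of 1850635 in the genome, with each strand of a CpG counted on its own. Of these, 101 lay within 1 kb of an annotated gene start (the promoter window) and 87 in gene bodies outside that window. Across the genome, siCon had 104999613 reads over 5453019 CpG cytosines with a median of 12 reads, and siH19 had 106372792 reads over 5266846 cytosines with a median of 13.

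The caspase promoters differed in CpG content. All 6 genes lie on the plus strand of GRCm38. Casp2 (chr6:42264985-42282508), Casp6 (chr3:129901425-129914103), Casp8 (chr1:58795374-58847503) and Casp9 (chr4:141793612-141815976) had CpG-rich promoters, with 84, 59, 51 and 96 CpGs in the window. CpG-rich means that some stretch of 500 bases had a GC content of at least 55% and an observed over expected CpG ratio of at least 0.75. Casp12 (chr9:5345430-5373032) had a CpG-poor promoter with 14 CpGs, in which no stretch reached a ratio of 0.48. Casp1 (chr9:5298517-5307265) was intermediate with 18 CpGs. The sequences of the 250 bases before the gene start show the contrast for a CpG-rich promoter with its covered CpGs in this stretch (Casp2), the promoter with the most CpGs (Casp9), and the 2 promoters with the fewest (plus strand, GRCm38, CpGs in capitals).
Casp2 (chr6:42264735-42264984): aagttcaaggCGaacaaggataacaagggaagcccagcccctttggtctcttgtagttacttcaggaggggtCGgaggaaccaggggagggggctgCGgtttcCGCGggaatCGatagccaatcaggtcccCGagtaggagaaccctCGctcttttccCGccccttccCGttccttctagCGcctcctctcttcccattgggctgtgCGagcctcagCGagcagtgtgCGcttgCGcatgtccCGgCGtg
Casp9 (chr4:141793362-141793611): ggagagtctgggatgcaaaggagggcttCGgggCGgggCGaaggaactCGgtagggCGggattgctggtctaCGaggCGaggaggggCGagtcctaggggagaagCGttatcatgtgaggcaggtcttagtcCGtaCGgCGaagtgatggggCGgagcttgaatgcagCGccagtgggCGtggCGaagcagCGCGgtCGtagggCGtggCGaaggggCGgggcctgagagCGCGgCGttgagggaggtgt
Casp1 (chr9:5298267-5298516): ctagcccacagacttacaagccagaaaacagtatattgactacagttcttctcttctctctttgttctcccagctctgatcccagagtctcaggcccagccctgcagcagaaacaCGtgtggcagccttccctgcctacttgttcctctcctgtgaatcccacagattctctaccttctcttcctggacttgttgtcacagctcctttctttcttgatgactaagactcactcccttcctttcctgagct
Casp12 (chr9:5345180-5345429): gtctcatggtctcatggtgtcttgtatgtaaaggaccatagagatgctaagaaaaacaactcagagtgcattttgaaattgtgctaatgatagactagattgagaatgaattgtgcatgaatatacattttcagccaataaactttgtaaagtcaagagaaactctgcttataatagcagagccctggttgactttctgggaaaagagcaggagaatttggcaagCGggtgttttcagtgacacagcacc
These stretches held 17 CpGs in Casp2, 25 in Casp9, 1 in Casp1 and 1 in Casp12. The same stretch held 12 CpGs in Casp6 and 4 in Casp8.

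CpG content and coverage went together, so the planned contrast of levels between CpG-rich and CpG-poor caspase promoters gave no value. The Casp12 window held 1 CCGG and 1 TCGA, the Casp1 window held 0 CCGG and 1 TCGA, and neither had a covered cytosine outside the sites. In Casp1 there were 0 promoter cytosines with any read in either library. In Casp12 there were 4, of which 1 lay outside the sites, at -760 bases from the gene start, with 4 of 8 reads methylated in siCon and no reads in siH19. The CpG-rich promoters were covered in part: 7 of 84 CpGs in Casp2 (8.33%), 21 of 59 in Casp6 (35.6%), 17 of 51 in Casp8 (33.3%) and 7 of 96 in Casp9 (7.29%). The levels below therefore describe those CpGs and not the whole promoters. Among all protein-coding genes, 97.1% of 10701 CpG-rich promoters but 7.51% of 7056 CpG-poor promoters had the 5 covered cytosines needed for a test.

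The 4 measured caspase promoters were nearly free of methylation in both libraries. Summed reads add the reads at each cytosine, so a read over several CpGs counts once at each. In Casp2 the plus-strand cytosine at -119 had 23 reads in siCon and its minus-strand partner 39. Intervals and tests on sums, here and for gene bodies, take these counts as independent and may be too narrow. Casp2 had 1 of 431 reads methylated in siCon (0.232%, Wilson interval 0.0410 to 1.30) and 1 of 374 in siH19 (0.267%, 0.0472 to 1.5). Casp9 had 10 of 1075 (0.930%, 0.506 to 1.70) and 4 of 963 (0.415%, 0.162 to 1.06). Casp8 had 27 of 1246 (2.17%, 1.49 to 3.13) and 10 of 1419 (0.705%, 0.383 to 1.29). Casp6, the highest of the 4, had 75 of 1480 (5.07%, 4.06 to 6.31) and 51 of 1839 (2.77%, 2.12 to 3.63). In siCon the intervals of Casp2 and Casp9 overlapped, as did those of Casp9 and Casp8, and the interval of Casp6 lay above that of Casp8. In siH19 the intervals of Casp2, Casp9 and Casp8 overlapped and that of Casp6 again lay above them.

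**Figure D1:**
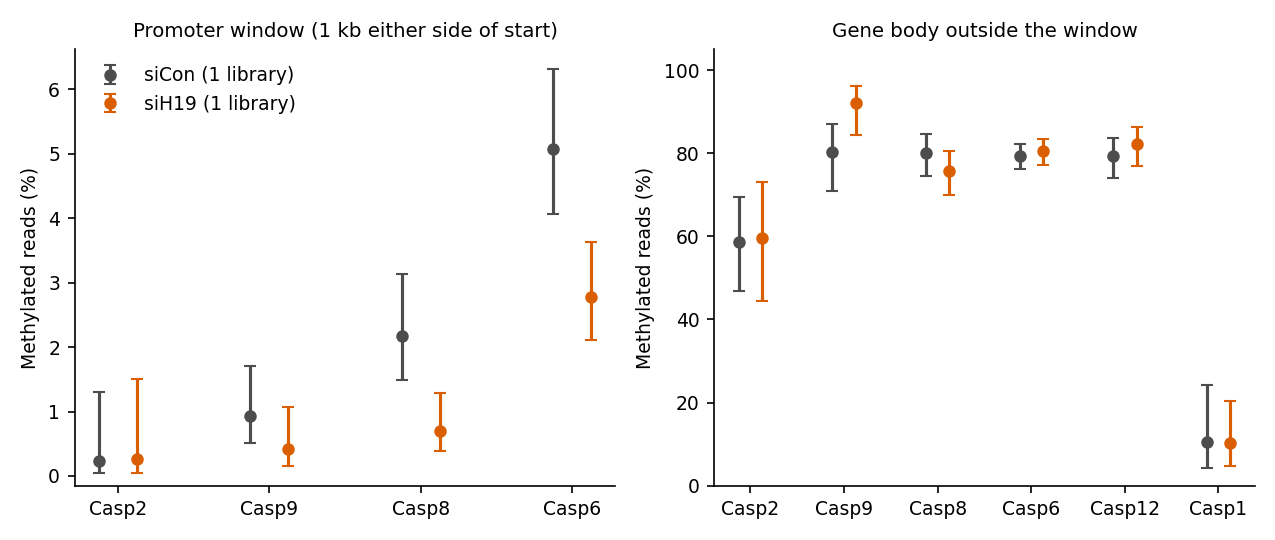
Methylated reads as a percentage of summed reads (y axis) for each caspase gene (x axis) in siCon (grey) and siH19 (orange), 1 library each, with Wilson 95% intervals as bars. The 4 measured promoters lie between 0.232% and 5.07%, and the gene bodies of Casp6, Casp8, Casp9 and Casp12 between 75.6% and 92.0%.

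These levels lay in the range of other CpG-rich promoters. The 10388 tested CpG-rich promoters had a median level of 1.38% in siCon (quartiles 0.655 to 6.32) and 1.37% in siH19 (0.694 to 6.28). In siCon, 3.34% of them were lower than Casp2, 37.9% lower than Casp9, 60.2% lower than Casp8 and 72.3% lower than Casp6. The 2636 tested intermediate promoters had a median of 13.6% in siCon, and the 530 tested CpG-poor promoters had 43.0% (16.5 to 68.7) in siCon and 43.1% in siH19. The class of Casp12 thus had the highest median of the 3 classes, but the few CpG-poor promoters with a value are those near restriction sites, and Casp12 was not among them.

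**Figure D2:**
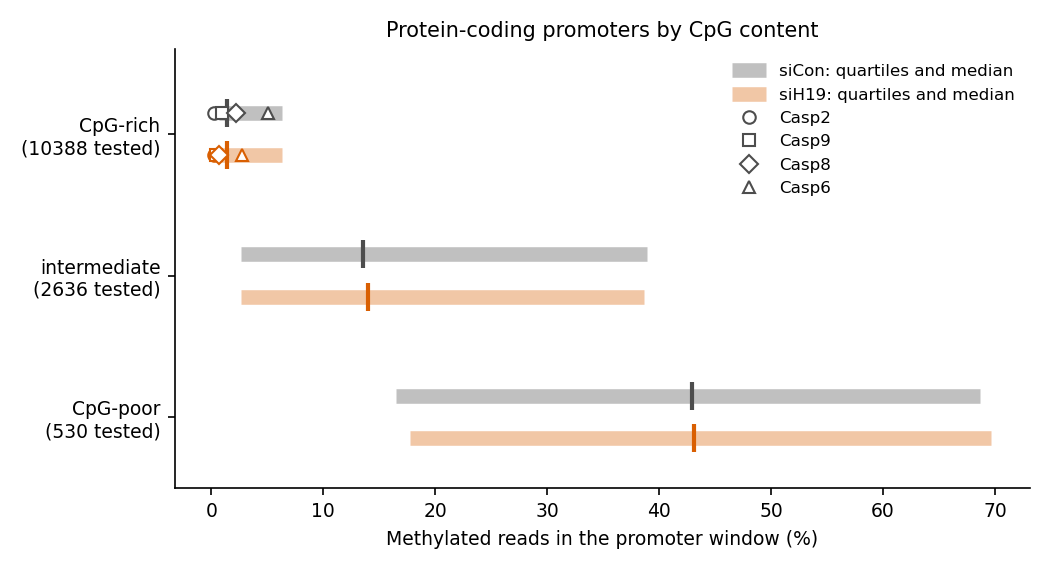
Methylated reads in the promoter window (x axis, percent) for protein-coding promoters of each CpG class (y axis), with quartiles as bars and medians as ticks for siCon (grey) and siH19 (orange), and the 4 measured caspase promoters as open symbols. All 4 caspases lie below the upper quartile of the CpG-rich class, 6.32% in siCon and 6.28% in siH19.

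No caspase promoter was called as changed between the libraries. Each region was compared by an exact test stratified by cytosine, which weighs each cytosine in the same way in both libraries, and a region was called if it moved by 10 percentage points or more with a Benjamini-Hochberg adjusted p under 0.05. Of the 4 tested caspase promoters 0 were called, against a background of 0.606% of all 19476 tested promoters and 0.231% of the 10388 tested CpG-rich ones. The highest siCon level of the 4 was 5.07%, so a fall of 10 points could not be called. With no minimum difference, 1 of the 4 had an adjusted p under 0.05 by the same exact test, and the background was 6.82%. The median difference of the 4, siH19 minus siCon, was -0.50 points, and over all tested promoters it was 0.0884.

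The promoter of Casp8 was the 1 that passed without a minimum difference. Weighted by cytosine, as in the test, its level was 2.50% in siCon and 0.647% in siH19. The difference was -1.85 points (95% interval -2.81 to -0.89, adjusted p = 0.0025 by the stratified exact test). Of its 34 covered cytosines 19 had no methylated read in either library, and the lower level came from the plus-strand cytosines 310, 319 and 323 bases after the gene start, in a non-coding exon. They are shown here with their surroundings, with the CpGs in capitals.
Casp8 (chr1:58795674-58795701): cccaagccagCGgaggcctCGccCGagc
The cytosine at 310 had 9 of 42 reads methylated in siCon (21.4%) and 4 of 73 in siH19 (5.48%, Fisher's exact p = 0.0138). At 319 the counts were 6 of 42 (14.3%) and 0 of 74, which allows up to 4.05% (Fisher's exact p = 0.00177). At 323 they were 6 of 41 (14.6%) and 0 of 73, which allows up to 4.11% (Fisher's exact p = 0.00169, adjusted p = 0.839). The minus-strand cytosines of the same CpGs each had 0 of 20 methylated reads in siCon, which allows up to 15%. That limit lies above the plus-strand siCon levels at 319 and 323. In siH19 the minus strand had 0 of 46, 1 of 46 and 0 of 46. The 3 plus-strand cytosines lie within 14 bases and had nearly equal read numbers, so their counts may come from the same reads and are not independent. Their depth was also raised beside the plus-strand CCGG cytosine at 280, which had 21 reads in siCon and 37 in siH19.

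Split by strand, Casp8 had 25 of 666 plus-strand promoter reads methylated in siCon (3.75%) and 6 of 699 in siH19 (0.858%). Weighted by cytosine, the plus-strand difference was -3.84 points (-5.54 to -2.13). On the minus strand the counts were 2 of 580 (0.345%) and 4 of 720 (0.556%), with a weighted difference of 0.23 points (-0.50 to 0.95). Without the 3 plus-strand cytosines, a comparison chosen after their values were seen, the promoter difference was -0.003 points (-0.57 to 0.57, adjusted p = 1, exact). With the cytosines in CCGG and TCGA included it was -1.71 points, with an adjusted p of 0.112. The low promoter level of Casp8 in both libraries thus holds on both strands, whereas the difference between libraries was read on 1 strand of 3 neighbouring CpGs.

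**Figure D3:**
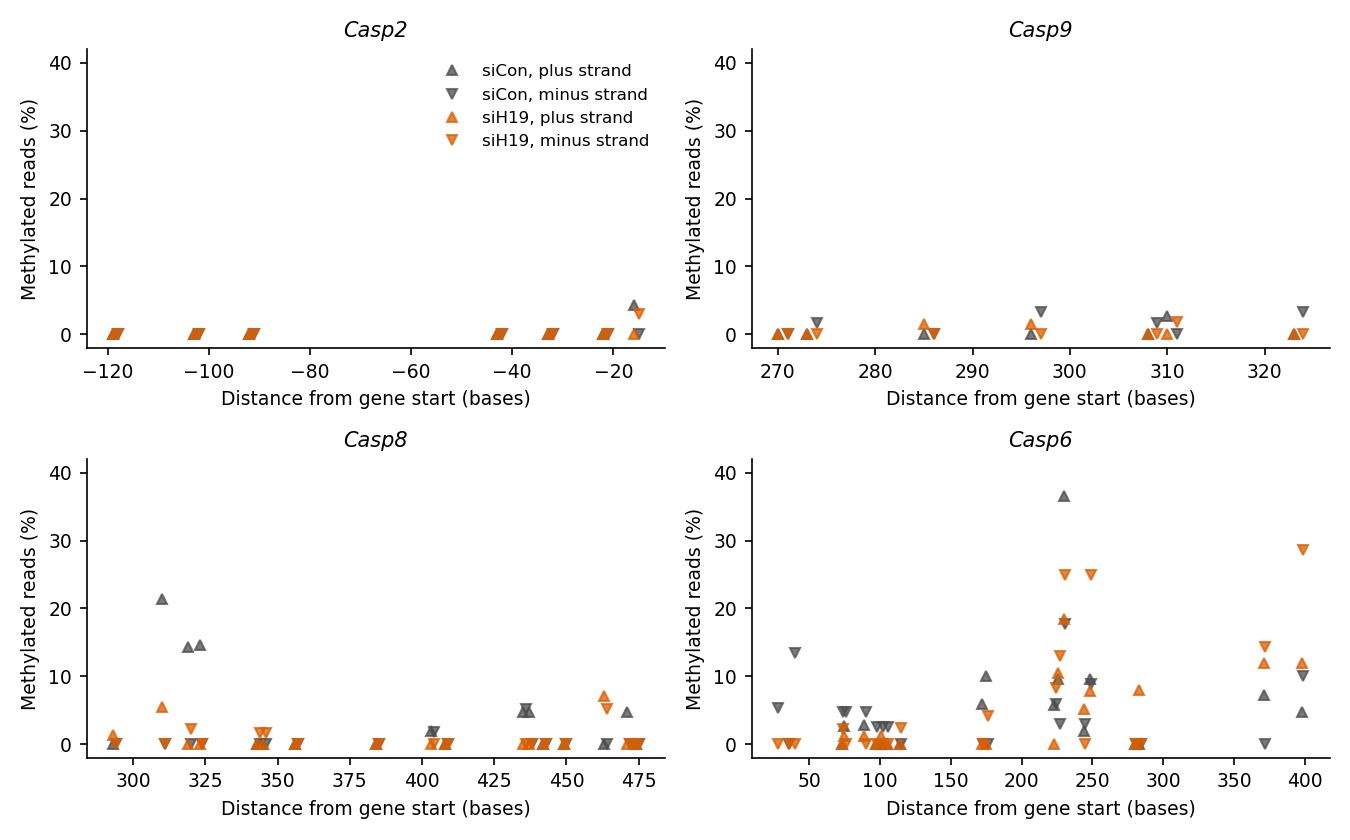
Methylated reads (y axis, percent) at each covered promoter cytosine of the 4 measured caspases by distance from the gene start (x axis, bases), in siCon (grey) and siH19 (orange), with upward triangles for the plus strand and downward for the minus strand. In Casp8 the siCon plus-strand points at 310, 319 and 323 bases (21.4%, 14.3% and 14.6%) stand above the rest, and in Casp6 the highest points are near 230 bases.

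Casp6 had the most methylated of the measured promoters. Of its 39 covered cytosines 32 lay in an intron, with 5.18% of reads methylated in siCon and 3.15% in siH19. The 7 in an exon outside the coding part had 4.42% and 0.702%. All 39 lay 28 to 399 bases after the gene start, and 9 of them had no methylated read in either library. The cytosine at 230 on the plus strand had 19 of 52 reads methylated in siCon (36.5%) and 7 of 38 in siH19 (18.4%), and its minus-strand partner 6 of 34 (17.6%) and 6 of 24 (25%). The 2 strands of this CpG lay on opposite sides in the comparison of libraries. At 97 bases on the plus strand, in contrast, 0 of 73 reads were methylated in siCon and 0 of 162 in siH19, which allows up to 4.11% and 1.85%. Summed reads of the window were 2.29 points lower in siH19 (adjusted p = 0.0074 by Fisher's exact test on the sums). With each cytosine given the same weight in both libraries the difference was -0.48 points (-1.86 to 0.89, adjusted p = 0.802 by the stratified exact test), a comparison from which the spread of reads over the window is removed.

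Over the whole window, the promoters of Casp9 and Casp2 showed no difference beyond counting error. In Casp9 all 14 covered cytosines lay in the coding exon, 270 to 324 bases after the gene start, and 1 stretch holds them all (CpGs in capitals).
Casp9 (chr4:141793877-141793942): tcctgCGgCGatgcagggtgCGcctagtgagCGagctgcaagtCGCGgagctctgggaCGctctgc
The highest level at any of these cytosines was 3.33% in siCon and 1.89% in siH19. The difference over the window was -0.51 points (-1.21 to 0.19, adjusted p = 0.510 by the stratified exact test). By strand, the minus strand had 8 of 480 reads methylated in siCon (1.67%) and 1 of 422 in siH19 (0.237%), a difference of -1.43 points whose interval leaves out 0 (-2.67 to -0.19), and the plus strand had 2 of 595 and 3 of 541, a difference of 0.22 points (-0.56 to 1.00). In Casp2 the 14 covered cytosines lay from -119 to -15 bases relative to the gene start, within the upstream sequence given above, and 12 had no methylated read in either library. The 1 methylated read in siCon was on the plus strand 16 bases before the start and the 1 in siH19 on the minus strand of the same CpG. The difference was 0.03 points (-0.66 to 0.73, adjusted p = 1, exact). This interval rests on 1 methylated read in each library, too few for an interval of this kind. The Wilson intervals of the levels reach 1.30% in siCon and 1.5% in siH19, so a change of 1 point is not left out.

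The gene bodies were methylated, except at the 1 covered CpG of Casp1 outside the restriction sites. Casp6 had 531 of 669 reads methylated in siCon (79.4%, 76.1 to 82.3) and 471 of 585 in siH19 (80.5%, 77.1 to 83.5). Casp8 had 185 of 231 (80.1%, 74.5 to 84.7) and 192 of 254 (75.6%, 70.0 to 80.5). Casp9 had 73 of 91 (80.2%, 70.9 to 87.1) and 81 of 88 (92.0%, 84.5 to 96.1). The Casp9 values come from 7 intronic cytosines, all in soft-masked repeats, 8972 to 9329 bases after the start of a gene of 22365 bases. In Casp8, 14 of 20 body cytosines lay in such repeats. These levels therefore describe the covered cytosines and not whole bodies. The 4 bodies with 5 or more cytosines, Casp12 included, had overlapping intervals in siCon. In siH19 the interval of Casp9 lay above those of Casp8 and Casp6.

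Casp12, whose promoter had no value, was methylated in its body. It had 218 of 275 reads methylated in siCon (79.3%, 74.1 to 83.6) and 211 of 257 in siH19 (82.1%, 77.0 to 86.3), over 21 cytosines that all lay in introns and in soft-masked repeats. Of these, 18 formed 1 run 19634 to 19852 bases after the gene start, at 81.5% in siCon and 85.4% in siH19. Within that run the levels in siCon went from 28.6% at the minus-strand cytosine at 19646 to 100% at the plus-strand cytosines at 19754 and 19756.

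Casp1 and Casp2 each had 1 covered body CpG outside the restriction sites. Body cytosines inside the sites, 4 covered in Casp1 and 8 in Casp2, were left out. Those 4 in Casp1 had 9.52%, 90%, 100% and 84.2% of reads methylated in siCon. In siH19 the same cytosines had 21.6%, 80%, 100% and 85.7%. In Casp1 the CpG 8225 bases after the start, in a coding exon near the end of the gene, had 4 of 38 reads methylated in siCon (10.5%, 4.17 to 24.1) and 6 of 59 in siH19 (10.2%, 4.74 to 20.5), with both strands low. In Casp2 the plus-strand cytosine 2601 bases after the start, also coding, had 41 of 70 (58.6%, 46.9 to 69.4) and 25 of 42 (59.5%, 44.5 to 73.0). Neither body reached 5 cytosines and neither was tested. The body of Casp1 was the lowest of the 6 in both libraries, and 1 CpG cannot describe a gene of 8749 bases.

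Of the 4 tested caspase bodies 0 were called, against a background of 0.272% of 18018 tested bodies, and with no minimum difference 0 of 4 passed, against 1.24%. The difference, siH19 minus siCon, was 8.48 points in Casp9 (-0.45 to 17.4, adjusted p = 0.501), 4.67 in Casp12 (-1.23 to 10.6, adjusted p = 0.628), 4.54 in Casp6 (1.02 to 8.07, adjusted p = 0.215) and 0.78 in Casp8 (-4.69 to 6.24, adjusted p = 1), all by the stratified exact test. These differences give each cytosine the same weight in both libraries, unlike the summed levels above. Weighted so, all 4 were above 0 and their median was 4.61 points, beside 0.177 over all tested bodies. On summed reads the difference was -4.50 points in Casp8, 11.8 in Casp9, 2.83 in Casp12 and 1.14 in Casp6. The weighted Casp8 difference also had the other sign with 10 or more reads required. With soft-masked repeats left out, the bodies of Casp9 and Casp12 had no value and that of Casp8 kept 6 cytosines (1.21 points, -1.13 to 3.54). The Casp6 body passed with 10 or more reads (7.12 points, adjusted p = 0.0465) and with restriction-site cytosines included (4.92 points, adjusted p = 0.0373, stratified exact test), both still under 10 points. Protein-coding gene bodies as a whole had a median level of 58.3% in siCon (quartiles 32.2 to 79.8) and 58.8% in siH19, and 74.5% to 75.6% of them were lower than each of these 4 caspases in siCon.

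**Figure D4:**
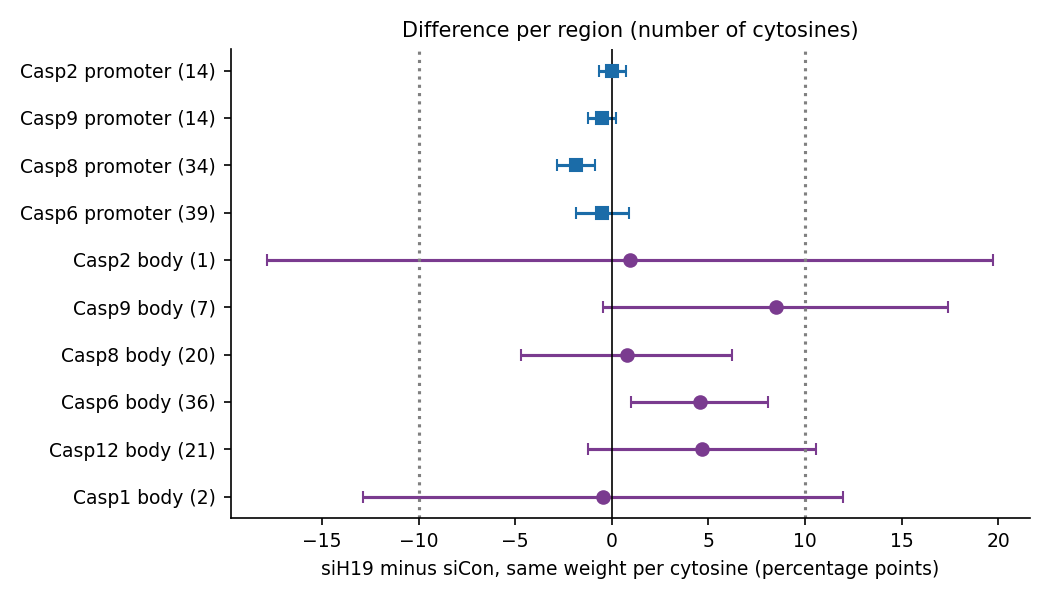
Difference in methylation, siH19 minus siCon (x axis, percentage points, same weight per cytosine in both libraries), for each caspase promoter (squares) and body (circles) on the y axis, with 95% intervals as bars, the number of cytosines in brackets, and dotted lines at 10 points either side of 0. The Casp8 promoter (-1.85) and the Casp6 body (4.54) have intervals that leave out 0, and no point is beyond a dotted line.

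The body of Casp6 held stretches of different level close together. An intronic run of 15 cytosines 9907 to 10202 bases after the start had 62.0% of reads methylated in siCon and 62.2% in siH19, and the next run, 18 cytosines in coding exon and intron 10590 to 10856 bases after the start, had 95.03% and 96.9%. With each cytosine weighted alike in both libraries the intronic run was 8.12 points higher in siH19 (1.38 to 14.9) and the later run 1.70 points (-1.60 to 5.00). The intronic run itself was uneven. In siCon its first cytosine on the plus strand, at 9907, had 15.4% methylated reads, and those from 10087 on had 84.2% or more.

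The 1 strongly changed caspase cytosine lay in that intronic run. Strongly changed means a difference of at least 33 points and Fisher's exact p under 0.05 at a single cytosine. It is the plus-strand cytosine 9933 bases after the Casp6 start (chr3:129911358), the second CpG of this stretch, with CpGs in capitals.
Casp6 (chr3:129911325-129911385): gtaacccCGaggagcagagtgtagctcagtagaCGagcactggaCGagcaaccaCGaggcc
It had 6 of 13 reads methylated in siCon (46.2%) and 26 of 28 in siH19 (92.9%, Fisher's exact p = 0.00196, adjusted p = 0.878). Its minus-strand partner had 29 of 39 (74.4%) and 19 of 22 (86.4%). In siCon the strands of this CpG stood further apart than in siH19. The last CpG of the stretch, at 9954, was lower in both libraries. Its plus strand had 4 of 13 (30.8%) and 14 of 29 (48.3%), and the minus strand 12 of 36 (33.3%) and 6 of 21 (28.6%). With both strands of each CpG summed, no caspase CpG was strongly changed.

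**Figure D5:**
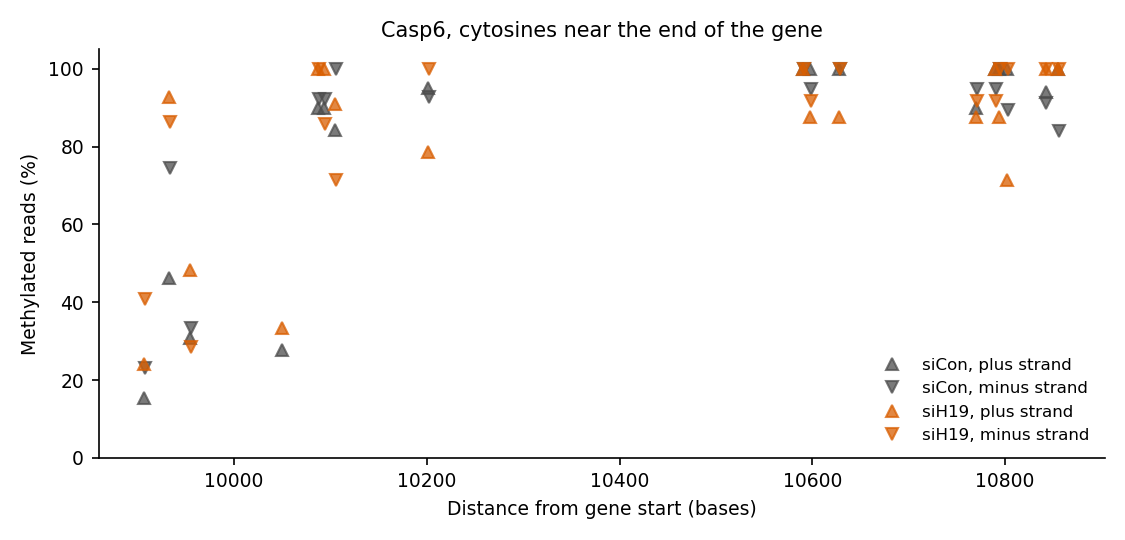
Methylated reads (y axis, percent) at covered cytosines near the end of Casp6 by distance from the gene start (x axis, bases), in siCon (grey) and siH19 (orange), with upward triangles for the plus strand and downward for the minus strand. Cytosines up to 10050 bases lie mostly under 50% apart from the CpG at 9933 (46.2% to 92.9%), and those after it lie above 70%.

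Single cytosines of the caspases passed the test about as often as those of the genome. Of 188 cytosines, 5 had a Fisher's exact p under 0.05 (2.66%), 2 higher and 3 lower in siH19, against a background of 2.53%. Of the same 188, 1 was strongly changed (0.532%), against 0.986% of all cytosines (0.519% higher and 0.467% lower). With Benjamini-Hochberg adjustment over all 1850635 cytosines 0 of the 188 passed, and the lowest adjusted p of Fisher's exact test was 0.839. The fifth cytosine, with the Casp6 and Casp8 ones given above, was on the minus strand 10843 bases after the Casp6 start, in a coding exon, with 42 of 46 reads methylated in siCon (91.3%) and 52 of 52 in siH19 (100%, Fisher's exact p = 0.0452). Its plus-strand partner had 31 of 33 (93.9%) and 46 of 46 (100%). Of 104 covered cytosines inside CCGG and TCGA, which the comparison leaves out, 3 were strongly changed, against 1.93% of all such cytosines.

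The strands of a CpG give a check within 1 library, since methylation is usually carried on both. Both strands were covered at 82 caspase CpGs, and they differed (Fisher's exact p under 0.05) at 2 in siCon and 0 in siH19. The backgrounds were 3.51% of 755414 CpGs in siCon and 3.28% in siH19.

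Other genes of the caspase pathway were read in the same way. The list held 41 genes: other caspases, platforms and adaptors, death receptors, inhibitors, the Bcl2 family and substrates. Of 31 tested promoters 0 were called by the stratified test (background 0.606%), and 17 were higher and 14 lower in siH19, with a median difference of 0.16 points. Of 29 tested bodies 0 were called (background 0.272%), and 13 were higher and 16 lower, with a median of -0.19 points. With no minimum difference 1 promoter passed, that of Fadd, the adaptor that recruits Casp8 to death receptors, and no body did, against backgrounds of 6.82% and 1.24%. Fadd had 0.338% of summed reads methylated in siCon and 1.45% in siH19. Weighted by cytosine, as in the test, its levels were 0.202% and 1.28%, a difference of 1.07 points (adjusted p = 0.0175 by the stratified exact test). It is named because it passed, and a share of 1 in 31 is not above the background. On summed reads the promoters of Pidd1, which nucleates the platform of Casp2, and of Bak1, a pore-forming Bcl2 family member, would have been called. Pidd1 had 3.23% and 14.3% of summed reads methylated, and Bak1 53.2% and 32.8% (adjusted p = 0.0064 and 1.75e-07 by Fisher's exact test on the sums). By the stratified exact test Pidd1 differed by 8.35 points (adjusted p = 0.125) and Bak1 by 1.10 points in the other direction (adjusted p = 0.851).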

How the data were processed

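DNA of 1 siCon and 1 siH19 sample of C3H myotubes was digested with TaqI and MspI, bisulfite converted and sequenced. Per the paper's methods Bismark in its non-directional mode was used by the authors, who trimmed filled-in nucleotides at calling and took the level as C/(C+T); the submitters' processing notes name bcl2fastq 1.8.4 and mm10. The deposited files give for every CpG cytosine the methylated reads and all reads as text (a ratio of counts) and a score that matched the level in 100% of entries. Positions were checked against GRCm38, and 100% of 6041258 lay on a CpG. Genes came from GENCODE vM21. Regions with at least 5 cytosines were tested (exact test stratified by cytosine, Mantel-Haenszel difference with Sato interval, Benjamini-Hochberg over all regions), cytosines with Fisher's exact test, all two-sided, in Python 3.11.15 with scipy 1.17.1, after a check on simulated data. All 6 caspases are named, with their strongly changed cytosines or those of lowest p. The members and pathway lists were chosen with earlier results of these data known. The contrast of CpG-rich and CpG-poor caspase promoters gave no value. Alternatives were another test, coverage minimum, window and strand, site and repeat handling.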

Additional observations from a re-analysis of the deposited data

Results flagged for a closer look

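Cytosines inside CCGG and TCGA were kept out of every comparison, and 3 of the 104 covered ones in the caspase genes were strongly changed, against 1.93% of all such cytosines. The plus-strand CCGG cytosine 124 bases after the Casp2 start had 2 of 13 reads methylated in siCon (15.4%) and 7 of 7 in siH19 (100%, Fisher's exact p = 0.000464, adjusted p = 0.118), while its minus-strand partner went the other way, from 42.9% to 11.1%. The minus-strand CCGG cytosine 63 bases after the Casp6 start had 24 of 58 (41.4%) and 44 of 56 (78.6%, Fisher's exact p = 5.88e-05, adjusted p = 0.0319), with a partner at 0% and 2.47%. The plus-strand CCGG cytosine 9889 bases after the Casp6 start had 3 of 13 (23.1%) and 18 of 29 (62.1%, Fisher's exact p = 0.0431, adjusted p = 1), with a partner at 94.9% and 100%. The part of filled-in nucleotides in these values was not tested.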

How the results depend on the processing

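No caspase body was called under any alternative, and a promoter (that of Casp8) passed under 1, with no minimum difference. Strongly changed caspase cytosines numbered 1 in the report, 0 with an adjusted p under 0.05, 0 with the strands of a CpG summed, 4 with CCGG and TCGA cytosines included and 3 with those alone, the last an alternative chosen after seeing the data. Of 91 values of single regions under an alternative, 84 kept their sign and 7 did not. The sign turned for the Casp8 body with summed reads (-4.50 points) and with at least 10 reads (-1.60), and for the Casp6 promoter with site cytosines included (1.44) and with window and body joined (0.95, chosen after seeing the data). With an unweighted mean of the cytosine differences it also turned for the Casp6 promoter (0.38) and the Casp2 promoter (-0.10), and with site cytosines included for the Casp1 body (0.58). The cause was not tested. The Casp8 promoter had differences from -2.03 to -0.003 points over 10 alternatives, with an adjusted p (exact tests) from 0.00188 to 1. The -0.003 and the p of 1 came with the 3 plus-strand cytosines left out, an alternative chosen after seeing the data. Without it the ranges were -2.03 to -1.44 points and, for the adjusted p (exact tests), 0.00188 to 0.112. Over the whole table, promoters called were 118 by the stratified test, 491 on summed reads and 1329 with no minimum difference, and bodies 49, 1562 and 224. No paired analysis was possible because each group had 1 library, and no library could be left out. Median depths of 12 and 13 reads limit single cytosines to large differences.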

Other observations

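At 10 of 152 caspase cytosines with at least 2 covered same-strand neighbours within 60 bases, the read depth was 1.9 to 2.1 times the neighbours' median in both libraries. In Casp9 the plus-strand cytosine 296 bases after the start had 148 reads in siCon and 134 in siH19, where the neighbours' medians were 74.5 and 68. In Casp8 the minus-strand cytosine at 385 had 107 and 121 reads beside 54 and 61, and in Casp6 the plus-strand cytosine at 97 had 73 and 162 beside 37 and 81. All 10 lay in CpG-rich promoter windows of these 3 genes. A run whose covered neighbours share a raised depth cannot be marked in this way. The Casp8 plus-strand cytosine at 310 had 42 and 73 reads, beside 21 and 37 at the CCGG cytosine at 280. The Casp6 minus-strand cytosine at 10843 had 46 and 52, beside 23 and 26 at the CCGG cytosine at 10877. Wilson intervals and exact tests take every listed read as 1 observation. The reason for the doubled depth was not tested.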
